A study of Rattus norvegicus with 18 samples.

Results

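The genes described here encode nuclear subunits of the oxidative phosphorylation complexes I to V. The 36 genes were listed by name, with earlier results of these data known. Each was read from the probe set that named it alone and had the highest mean signal over all arrays, which was possible for 33 of the 36, among 10483 genes tested in all. Ndufa10 of complex I, Uqcrb of complex III and Cox7a2 of complex IV were each covered by a probe set that the platform annotation assigns to several genes, and no value is given for them. The 33 comprised 14 subunits of complex I, 4 of complex II, 4 of complex III, 6 of complex IV and 5 of complex V, and all 33 passed the filter on dim probe sets.

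Messenger RNA of whole kidneys from 18 rats was measured on Affymetrix Rat Genome 230 2.0 arrays, 1 per rat, with 9 rats labelled Dahl Salt-sensitive and SS/Jr (Dahl S in what follows) and 9 of S.SHR(2), a congenic whose parents are given as SS/Jr and SHR/NHsd. The series title calls the congenic renal protective, and the comparison asks which kidney transcripts differ between the strains. The congenic carries the Dahl S genome except for SHR segments, which its name places on chromosome 2. The design text speaks of males at 4, 12 and 20 weeks with 3 rats per strain and age, but an age is labelled for 2 rats alone, both Dahl S, and so no rat was placed in an age group. A diet of 0.3% NaCl is labelled for those 2 rats. In the order of their sample numbers the rats form 3 runs, each of 3 Dahl S followed by 3 S.SHR(2) rats. A gap in the numbers separates the first run from the others, whereas the second and the third follow each other without one (the third itself skips a number), and the division between them was made here from the order of the strains. The labels name no batch, and these runs are used as a possible one: 1 rat of the first run is labelled 4 weeks and 1 of the second 12 weeks, and no age is taken from the run of any other rat. Nothing in the labels says whether RNA was pooled, and the p-values measure the spread between these samples.

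In oxidative phosphorylation, complex I and complex II pass electrons from NADH and succinate to ubiquinone. Complex III hands them to cytochrome c, and complex IV to oxygen. Complexes I, III and IV pump protons across the inner mitochondrial membrane, and complex V, the ATP synthase, uses the gradient to make ATP. The kidney spends much of that ATP on tubular sodium transport, above all in the proximal tubule and the thick ascending limb. Most subunits are encoded in the nucleus, and transcription of their genes is known to involve NRF1, GABP, the oestrogen-related receptors and YY1, with PGC-1α (Ppargc1a) as a coactivator.

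Among the markers of nephron segments and podocytes, 21 passed the filter on dim probe sets and Pvalb of the distal tubule did not. Slc34a1, the phosphate transporter of the proximal tubule, lay between 4672 and 9493 units, and Umod, the uromodulin of the thick ascending limb, between 5258 and 7695 units. Other tested markers gave lower signals, down to 55.1 units for Atp6v1b1 of the collecting duct and 68.6 units for Wt1 of podocytes. No marker gene of skeletal muscle or of the adrenal cortex passed the filter, with Ckm, the muscle creatine kinase, at no more than 27.4 units and Cyp11b1, an adrenal steroid enzyme, at no more than 11.3 units. Ucp1, the uncoupling protein of brown fat, did not pass it either, with a highest value of 28.7 units, while 3 of the 4 fat markers did. The deposited intensities, in arbitrary units, had the same trimmed mean of 150 on every array. Each array's log2 median lay between 5.84 and 6.08, and the lowest 3 medians all belonged to S.SHR(2) rats of the third run, at 5.84, 5.88 and 5.94. The highest intensity on an array was 7508 to 9499 units in the third run and 11117 to 14648 units in the first and second. The 3′/5′ ratio of the GAPDH control probe sets, a measure of RNA integrity, was highest for S.SHR(2) replicate 1 (2.51) and Dahl S replicate 5 (2.04), and lay between 1.19 and 1.74 on the other arrays. The same ratio for beta-actin was wider, from 2.22 to 6.83, and was highest on the same arrays (6.83 and 5.88). By run the medians were 1.41, 1.36 and 1.53 for GAPDH and 3.48, 3.69 and 2.63 for beta-actin, so the controls ordered the runs differently.

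Promoter sequence was at hand for 31 of the 36 genes in the RefSeq table of the rat assembly GRCr8, from 250 bases before to 50 bases after the transcription start. Searched on both strands, the NRF1 core GCGCATG was present in 5 of these 31 promoters (16.1%, against 3.94% of all 27457 promoters in the table and 6.84% of those of genes tested here). The GABP core CCGGAAG was present in 11 (35.5%, against 9.22% and 18.3%). The core of the oestrogen-related receptors, AAGGTCA, was present in 3 (9.68%, against 4.37% and 2.86%), and the YY1 core AANATGG in 17 (54.8%, against 18.5% and 17.4%). Matches to different cores were counted separately, also where they overlapped. These are counts of letters and not of bound sites. The 250 bases upstream of the start are shown for Ndufb5, the member with the largest strain difference below, and for Sdhb and Cox8a, which were chosen after their matches were seen. They lie at chr2:117447355-117447604 on the plus strand for Ndufb5, chr5:158547684-158547933 on the plus strand for Sdhb and chr1:213833624-213833873 on the minus strand for Cox8a. Capitals mark matches to a core on either strand.
Ndufb5: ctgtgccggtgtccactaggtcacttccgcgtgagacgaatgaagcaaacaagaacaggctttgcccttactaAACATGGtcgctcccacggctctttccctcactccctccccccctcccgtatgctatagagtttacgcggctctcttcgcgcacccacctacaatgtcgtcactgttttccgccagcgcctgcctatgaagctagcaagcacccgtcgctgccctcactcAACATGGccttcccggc
Sdhb: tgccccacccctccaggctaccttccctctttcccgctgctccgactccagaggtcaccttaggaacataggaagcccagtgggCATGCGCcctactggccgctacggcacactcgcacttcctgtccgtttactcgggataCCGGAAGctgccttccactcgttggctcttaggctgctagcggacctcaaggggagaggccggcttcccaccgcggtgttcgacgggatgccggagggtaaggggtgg
Cox8a: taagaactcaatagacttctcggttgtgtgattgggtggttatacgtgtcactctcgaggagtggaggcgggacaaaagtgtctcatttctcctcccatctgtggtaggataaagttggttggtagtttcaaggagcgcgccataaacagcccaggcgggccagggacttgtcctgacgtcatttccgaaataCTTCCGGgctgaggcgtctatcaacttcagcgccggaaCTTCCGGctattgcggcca
Ndufb5 held 2 matches to the YY1 core upstream of its start. Sdhb held 1 to the NRF1 core and 1 to the GABP core, and Cox8a held 2 to the GABP core. No capital stretch overlapped another.

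No subunit transcript passed the test between the strains. Of the 33, 0 passed an adjusted p of 0.05 in limma's moderated test, whereas 6 of all 10483 genes did (0.0572%), and 0 reached an unadjusted p under 0.05, against 4.60% of all genes. The adjusted p was 0.999 for each of them. In bulk tissue, fewer cells of a type and less RNA per cell cannot be told apart. The ranges of the 9 Dahl S and 9 S.SHR(2) rats overlapped for all 33 (0.0763% of all genes had separate ranges). After quantile normalization the estimated change, S.SHR(2) minus Dahl S on the scale log2(intensity + 16), was above 0 for 23 members and below 0 for 10, with a median of 0.027 beside 0.016 over all genes and 0.012 over the brightest 20% of genes. With the values as deposited 31 members were above 0 (median 0.061, beside 0.0070 for all genes), and with arrays centred on their medians also 31 (median 0.10, beside 0.051), so that 8 members had the opposite sign under those scalings. Neither scaling gave a called member, and 0 and 4 members reached an unadjusted p under 0.05 (4.44% and 5.83% of all genes). With the run as a covariate 0 members were called as well, against 0.487% of all genes, and 2 reached an unadjusted p under 0.05, against 10.3% of all genes. The share of all genes above 0 was 56.6% after normalization, 52.8% as deposited and 67.5% after centring. Bright genes in general moved with the scaling too. Among the brightest 10% of genes the share above 0 was 58.2%, 75.2% and 86.3%, with medians of 0.013, 0.050 and 0.093.

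The intervals show how precise the fit without the run was. Its standard errors ran from 0.038 to 0.24 on the log2 scale. With the run as a covariate the estimates were the same and the errors smaller, from 0.032 (Atp5f1b) to 0.21 (Ndufb8). That of Sdha was 0.064 without the run and 0.035 with it. Without the run, the 95% interval of the strain difference lay inside ±0.5 for 32 of the 33 members and inside ±0.25 for 25. Its bounds reached from -0.58 for Ndufa5 to 0.50 for Ndufb8. The medians per complex were 0.047 for complex I, 0.031 for complex II, -0.0071 for complex III, 0.0059 for complex IV and 0.013 for complex V. Leaving out 1 rat moved that of complex I between 0.0095 (without Dahl S replicate 5) and 0.071 (without Dahl S replicate 1), and that of complex II between 0.022 (without Dahl S replicate 5) and 0.055 (without S.SHR(2) replicate 1). It moved complex III between -0.016 (S.SHR(2) replicate 3 left out) and 0.014 (Dahl S replicate 1 left out), complex IV between -0.024 (S.SHR(2) replicate 3 left out) and 0.026 (S.SHR(2) replicate 5 left out), and complex V between 0.0021 (Dahl S replicate 4 left out) and 0.031 (Dahl S replicate 1 left out). The median of all 33 was 0.0032 without Dahl S replicate 5, and 0.016, 0.013 and 0.012 without S.SHR(2) replicates 2, 3 and 9. As deposited all 5 were positive, between 0.019 and 0.076.

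**Figure D1:**
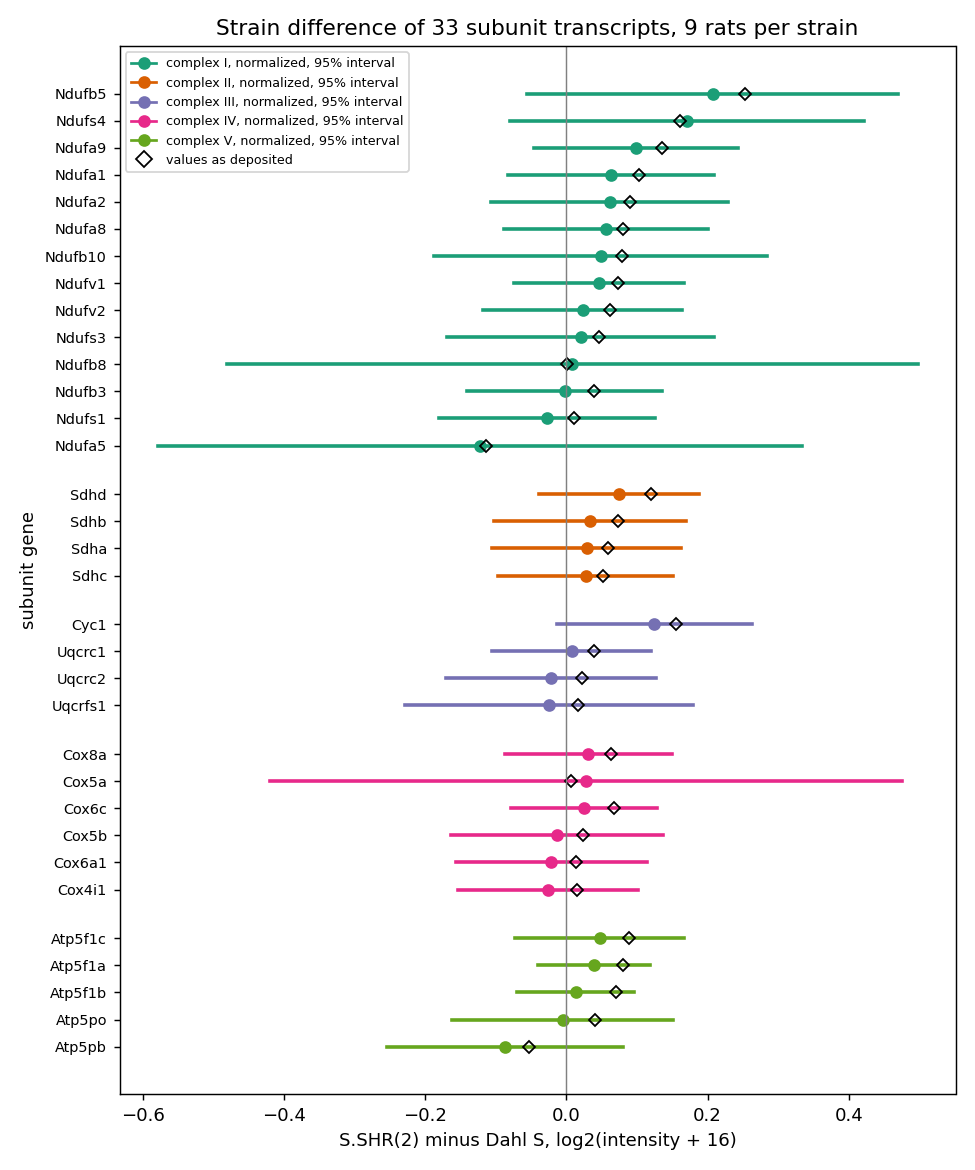
Strain difference of each of the 33 subunit transcripts, S.SHR(2) minus Dahl S, in log2(intensity + 16). Filled circles with lines are quantile-normalized estimates and 95% intervals over 9 rats per strain, coloured by complex, and open diamonds are the same differences in the values as deposited. All 33 intervals include 0, Ndufb5 lies farthest to the right (0.21), and the diamonds sit to the right of the circles for most genes.

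Complex I had the members with the largest estimates. Ndufb5, an accessory subunit of the membrane arm encoded on chromosome 2, ranged from 1944 to 3397 units in Dahl S (median 2998) and from 2442 to 5415 units in S.SHR(2) (median 3162). The ranges overlapped between 2442 and 3397 units, and S.SHR(2) replicate 1, with 5415 units, stood above all other rats. Its change was 0.21 ± 0.13 (SE), with a 95% interval from -0.055 to 0.47, and was 0.12 without that rat. With the run as a covariate, its unadjusted p was 0.0066 and its adjusted p 0.28, the lowest adjusted p of any member in any fit made over the 3 runs together.

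Ndufs4, an accessory subunit of the NADH-oxidising module that is mutated in some children with Leigh syndrome, is also encoded on chromosome 2. It ranged from 202 to 349 units in Dahl S (median 291) and from 242 to 434 units in S.SHR(2) (median 310). The ranges overlapped between 242 and 349 units, and the change was 0.17 ± 0.12. Ndufa9, an accessory subunit near the ubiquinone site, had medians of 1726 units in Dahl S and 1941 units in S.SHR(2) and a change of 0.099 ± 0.069.

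The core subunits of the peripheral arm, which carry the electron path from NADH, had small differences. Ndufv1, the subunit that binds NADH and FMN, ranged from 1342 to 1758 units in Dahl S (median 1606) and from 1505 to 1927 units in S.SHR(2) (median 1715), a change of 0.046 ± 0.058. Ndufv2 and Ndufs1, which hold iron-sulphur clusters, gave estimates of 0.023 ± 0.068 and -0.028 ± 0.074, and Ndufs3 one of 0.020 ± 0.091. For Ndufs1 the sign turned with the values as deposited (0.011). None of these core subunits passed the test.

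The remaining complex I members were accessory subunits. Ndufa1, Ndufa2, Ndufa8 and Ndufb10 had estimates of 0.063 ± 0.070, 0.061 ± 0.080, 0.056 ± 0.070 and 0.048 ± 0.11, and Ndufb3 one of -0.0026 ± 0.067. Ndufa5 ranged from 212 to 679 units in Dahl S and from 251 to 709 units in S.SHR(2), and Ndufb8 from 93.8 to 346 units and from 84.4 to 358 units. These 2 had the widest intervals of the complex, with changes of -0.12 ± 0.22 and 0.0081 ± 0.24. Their rats were spread over nearly the same range in both strains.

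Succinate dehydrogenase, complex II, is also an enzyme of the citric acid cycle. Sdha, its flavoprotein, ranged from 3297 to 3847 units in Dahl S (median 3623) and from 3371 to 4144 units in S.SHR(2) (median 3779). The 4 highest rats were S.SHR(2) and the lowest was Dahl S, the ranges overlapped for the others, and the change was 0.029 ± 0.064. Sdhb, the iron-sulphur subunit, gave an estimate of 0.033 ± 0.066, and the membrane anchors Sdhc and Sdhd gave 0.027 ± 0.059 and 0.074 ± 0.055. All 4 estimates were above 0, and none passed the test. A second tested probe set of Sdhd gave 0.045 ± 0.086.

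In complex III, Cyc1, the cytochrome c1 that passes electrons to cytochrome c, ranged from 2228 to 3252 units in Dahl S (median 3138) and from 2828 to 3833 units in S.SHR(2) (median 3175). The low Dahl S values came from the third run, at 2228, 2632 and 2355 units, where the S.SHR(2) rats had 3156, 3176 and 2828 units. Over all rats the change was 0.12 ± 0.066, with an interval from -0.013 to 0.26. Uqcrfs1, the Rieske iron-sulphur protein, gave an estimate of -0.025 ± 0.098. The core proteins Uqcrc1 and Uqcrc2 gave estimates of 0.0073 ± 0.054 and -0.022 ± 0.071. Uqcrfs1 and Uqcrc2 had estimates above 0 in the values as deposited (0.016 and 0.021). A second tested probe set of Uqcrc2 gave -0.10 ± 0.29.

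Complex IV, cytochrome c oxidase, is built around a catalytic core made in the mitochondrion, to which the members listed here are added. Cox4i1, the ubiquitous form of subunit 4, ranged from 4505 to 6306 units in Dahl S (median 5318) and from 4732 to 5935 units in S.SHR(2) (median 5466). The S.SHR(2) values lay wholly inside the Dahl S range, and the change was -0.026 ± 0.062. Cox5b, Cox6a1, Cox6c and Cox8a had estimates between -0.021 and 0.031. Cox5a was the dimmest member by signal, with 126 to 275 units in Dahl S and 100 to 435 units in S.SHR(2), and gave an estimate of 0.028 ± 0.22. Without S.SHR(2) replicate 1, which had the 435 units, its estimate was -0.11. A probe set that the annotation assigns to Cox5a and other genes was set aside. All Cox5a values here therefore rest on the dim probe set alone.

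In complex V, Atp5f1a and Atp5f1b of the catalytic head had the smallest standard errors of the 33 after normalization. As deposited their errors were 0.064 and 0.090, and the smallest was that of Sdha (0.054). Atp5f1a, the alpha subunit, ranged from 4212 to 5423 units in Dahl S (median 4767) and from 4442 to 5420 units in S.SHR(2) (median 5228), and gave an estimate of 0.040 ± 0.038. Atp5f1b, the beta subunit that carries the catalytic sites, gave an estimate of 0.013 ± 0.040, and Atp5f1c, the gamma subunit of the rotating stalk, one of 0.047 ± 0.058. After normalization, which limits how far such bright probe sets can move, the 95% intervals of Atp5f1a and Atp5f1b stayed between -0.070 and 0.12. Of the peripheral stalk that holds the head in place, Atp5po gave an estimate of -0.0055 ± 0.075, with a positive estimate as deposited (0.040). Atp5pb, the third chromosome 2 member, ranged from 3401 to 4911 units in Dahl S (median 4275) and from 2901 to 4758 units in S.SHR(2) (median 4012). Its change was -0.087 ± 0.080 and moved to -0.031 without S.SHR(2) replicate 1, the lowest value of that strain. The chromosome 2 members therefore had estimates of both signs, 0.21 and 0.17 for Ndufb5 and Ndufs4 and -0.087 for Atp5pb.

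Within the runs, 3 rats per strain were compared in a single fit of all 6 cells. After normalization 0 of 33 members were called in the first, the second or the third run (0.0859%, 0.0668% and 0.391% of all genes were), and 3, 0 and 1 reached an unadjusted p under 0.05 (10.1%, 3.11% and 12.3% of all genes). The members' median strain difference was -0.0043, 0.037 and 0.057, with 15, 26 and 25 members above 0 (54.7%, 50.7% and 57.1% of all genes). The strain difference had the same sign in all 3 runs for 10 members: Ndufa1, Ndufa9, Ndufb5, Ndufs4, Sdha, Sdhd, Cyc1, Atp5f1a and Atp5f1b were higher in S.SHR(2) in each, as 17.1% of all genes were, and Atp5pb was lower in each. None of these 10 was called.

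The values within the third run depended on the scaling. In that run the members' median difference was 0.057 after normalization, 0.14 as deposited and 0.27 with arrays centred on medians, beside medians over all genes of 0.032, 0.0018 and 0.13. Members above 0 numbered 25, 31 and 32 (57.1%, 50.4% and 71.8% of all genes). At an unadjusted p under 0.05 there were 1, 5 and 22 members (12.3%, 13.9% and 20.9% of all genes). Cyc1 alone was called, with arrays centred on medians (0.47, adjusted p = 0.037 in limma, where 1.66% of all genes were called), and not after normalization (0.26, adjusted p = 0.22) or as deposited (0.34, adjusted p = 0.095, where 0.572% of all genes were called). The 3 S.SHR(2) arrays of that run are the ones with the lowest medians, and the part of these arrays in the difference was not tested.

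The test of whether the strain difference varied over the runs called 0 members and 0 genes of 10483 in limma (2 members and 7.02% of all genes at an unadjusted p under 0.05). The 2 members were the dim Cox5a and Ndufb8. Cox5a differed by 0.45, -0.17 and -0.20 in the first, the second and the third run (adjusted p = 0.70 in limma). Ndufb8 differed by -0.70, 0.20 and 0.52 (adjusted p = 0.70 in limma). In the first run S.SHR(2) replicate 1 was the highest rat for Cox5a and the lowest for Ndufb8.

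A score per rat summarises the set: each member's log2 values were set to a mean of 0 over the 18 arrays, and the 33 members were then averaged. As deposited it averaged 0.12 ± 0.089 (SD, n = 3) in Dahl S and 0.10 ± 0.082 in S.SHR(2) of the first run. It averaged -0.044 ± 0.13 and 0.0059 ± 0.080 in the second run, and -0.16 ± 0.078 and -0.018 ± 0.051 in the third. After normalization the third run averaged -0.060 ± 0.032 and 0.0074 ± 0.013, the first 0.067 ± 0.039 and 0.057 ± 0.045, and the second -0.049 ± 0.10 and -0.022 ± 0.053. In the third run the 3 Dahl S scores were below the 3 S.SHR(2) scores under both scalings, and in the first and second runs the strains overlapped. Normalization narrowed the gap between the strains in the third run and left their order as it was. With 3 rats per strain, an order like this arises easily by chance.

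**Figure D2:**
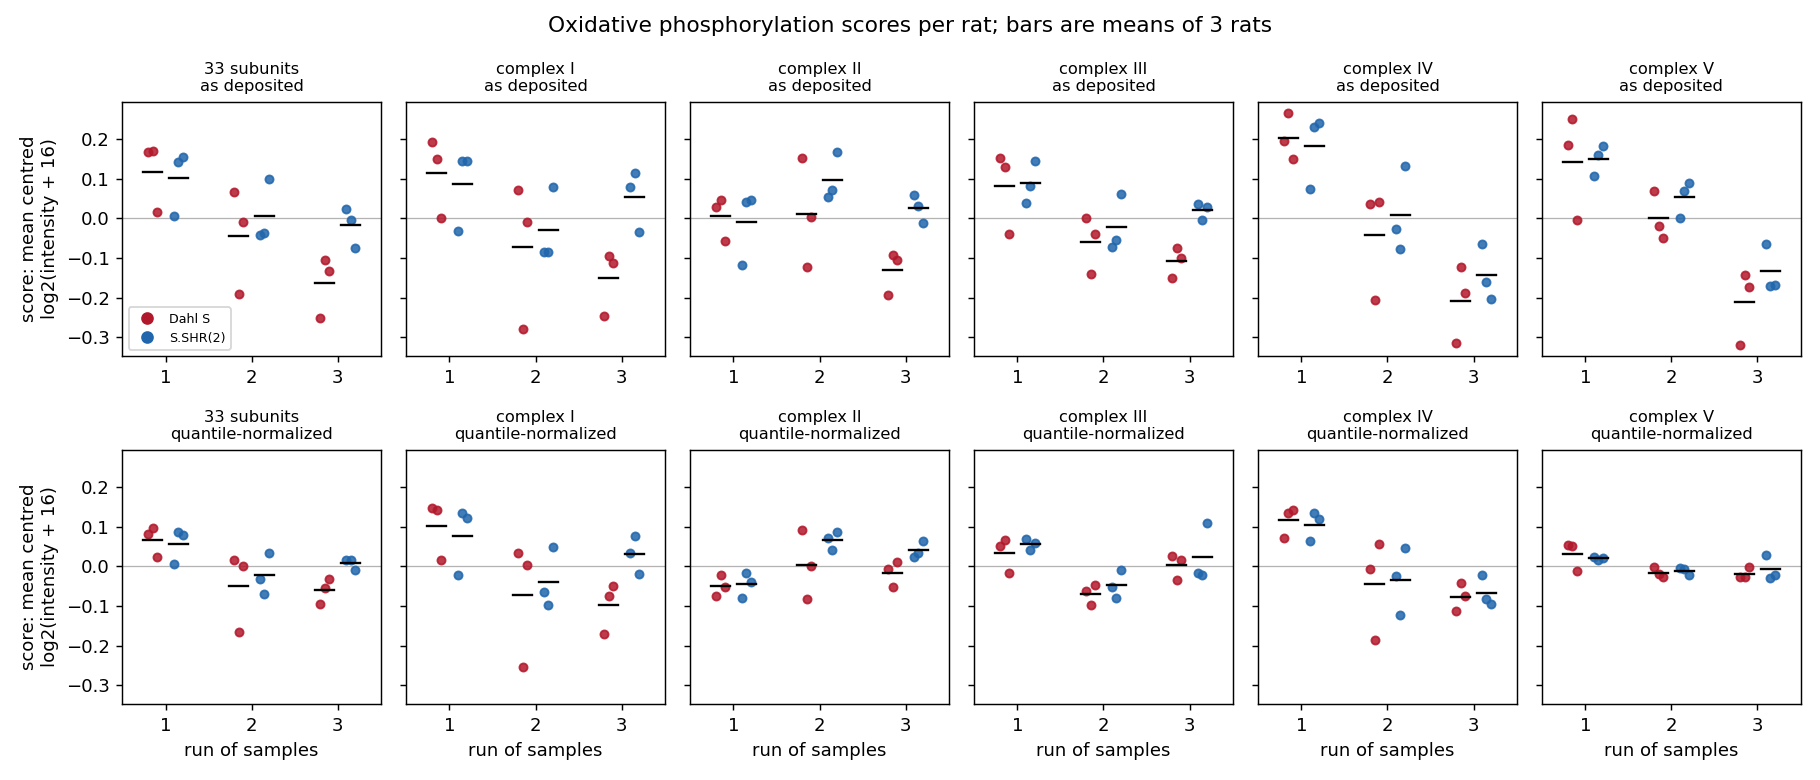
Scores per rat for the 33 subunits and for each complex, on the scale of mean centred log2(intensity + 16), as deposited (upper row) and quantile-normalized (lower row). Points are rats, red for Dahl S and blue for S.SHR(2), in the 3 runs of sample numbers, and bars are means of 3 rats. As deposited the complex V means of the third run lie at -0.21 and -0.13, and after normalization they lie at -0.018 and -0.0072.

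The complexes did not share 1 pattern over the runs. Complex IV scores as deposited were 0.20 and 0.18 (Dahl S and S.SHR(2)) in the first run and -0.21 and -0.14 in the third. After normalization they were 0.12 and 0.11 against -0.077 and -0.067. That normalized fall rested largely on Cox5a, the dimmest member, with means of 8.17 in the first run and 7.17 in the third. The third run minus the first was 0.144 for Cox4i1 and 0.043 for Cox6c. It was -0.096 for Cox5b, -0.104 for Cox6a1 and -0.079 for Cox8a. As deposited, all complex IV members had lower means in the third run than in the first. Complex V scores as deposited were 0.14 and 0.15 in the first run and -0.21 and -0.13 in the third. After normalization they were 0.032 and 0.021 against -0.018 and -0.0072. Complex II had no such gradient, with normalized scores of -0.049 and -0.046 in the first run, 0.0039 and 0.066 in the second and -0.016 and 0.041 in the third. Complex I separated the strains in the third run under both scalings, at -0.099 ± 0.064 and 0.030 ± 0.049 after normalization. The runs were not tested against each other, since what else differs between them is unknown.

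Part of the spread lay between runs, for the members as for genes at large. In all, 44.5% of a member's variance (the median of the 33) lay between runs, beside 36.9% for the median gene. More than 50% lay between runs for 12 of the 33 members, a share near the 34.7% of all genes. Sdha had the largest share, 90.8%, followed by Ndufb3 with 82.2%, Cox5a with 73.7% and Atp5po with 73.7%.

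Sdha was higher in the later runs after normalization. Its deposited values lay between 3297 and 3631 units in the first run, 3623 and 3997 units in the second and 3576 and 4144 units in the third. The normalized means were 11.71 ± 0.041, 11.88 ± 0.039 and 12.00 ± 0.043 (SD, n = 6), with the first run separate from the second and the third. As deposited, the runs overlapped.

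Other members were lower in the third run. Ndufb3 lay between 3043 and 3430 units in the first run, 2891 and 3193 units in the second and 2419 and 2641 units in the third, and the third run was separate from the other two under both scalings. Cox5a lay between 173 and 435, 162 and 224, and 100 and 157 units, and had normalized means of 8.17, 7.74 and 7.17. Ndufb5 lay between 3119 and 5415, 2876 and 3381, and 1944 and 2679 units. For these 3 genes all 6 rats of the third run were below all 12 of the others.

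Atp5po lay between 5030 and 6559 units in the first run and between 3566 and 4421 units in the third, and was separate between those runs under both scalings. Atp5f1b lay between 6724 and 8167 units in the first run and between 5304 and 6107 units in the third as deposited. Its normalized means were 12.73, 12.65 and 12.76, so that the separation of the deposited values was absent after normalization. On every array its probe set ranked between 18 and 33 by brightness. Quantile normalization gives equal ranks equal values, so these normalized means carry limited information on the runs. Ndufa5 was the member that was higher in the third run than in the second under both scalings, with 538 to 709 units against 212 to 442 units.

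**Figure D3:**
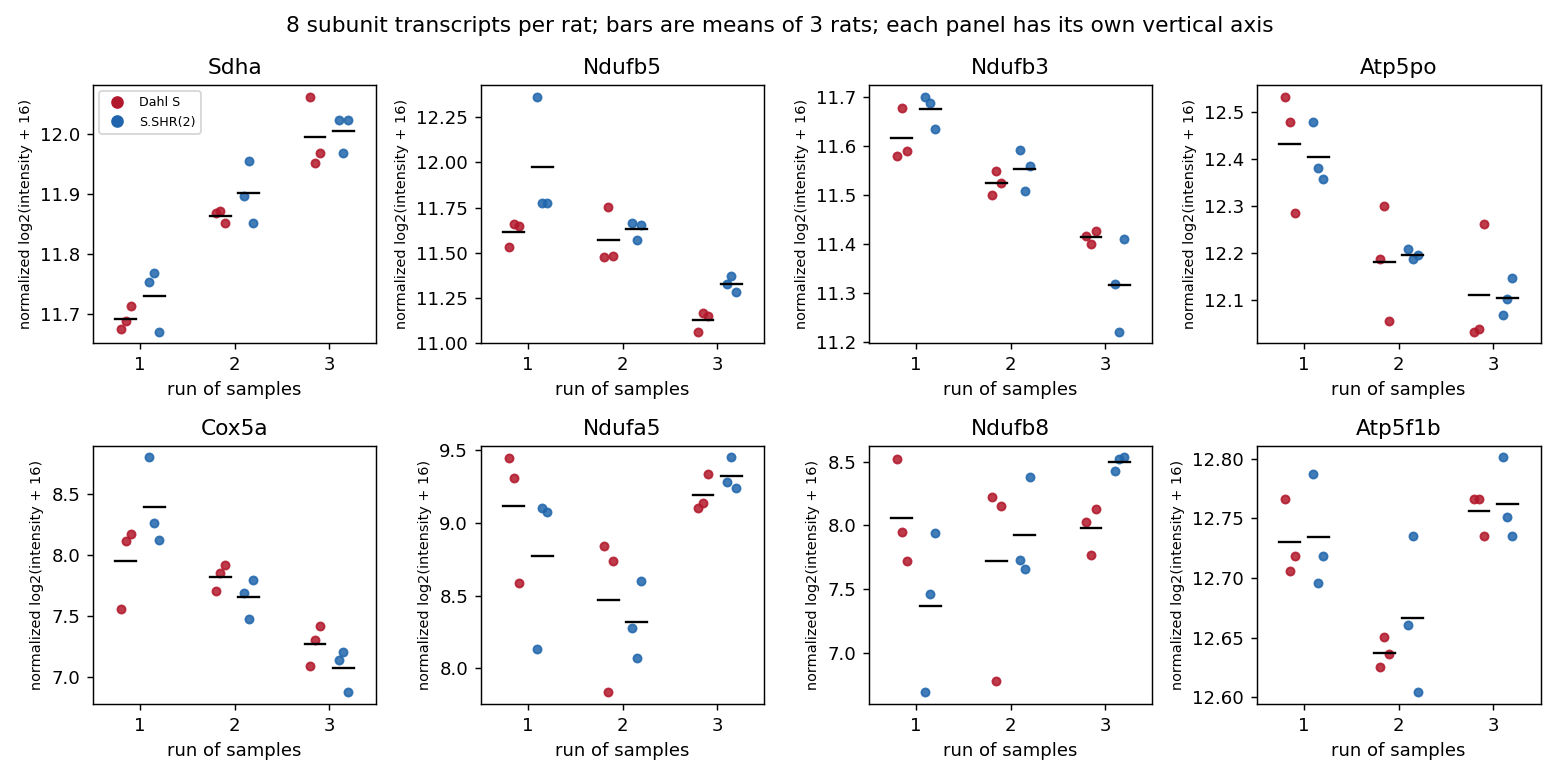
Quantile-normalized log2(intensity + 16) of 8 subunit transcripts, chosen after their values were seen, in the 3 runs of sample numbers. Points are rats, red for Dahl S and blue for S.SHR(2), bars are means of 3 rats, and each panel has its own vertical axis. The run means of Sdha go from 11.71 to 12.00, those of Cox5a from 8.17 to 7.17, and those of Atp5f1b stay between 12.65 and 12.76. Atp5f1b ranked between 18 and 33 by brightness on every array, which limits how far its normalized values can move.

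Counted over the set, the third run was separate from the first for 5 normalized members, with Sdha higher (9.02% of all genes were higher) and Atp5po, Ndufb3, Cox5a and Ndufb5 lower (7.84% of all genes were lower). As deposited, 0 were higher (8.59%) and 7 lower (8.43%), the 7 being Atp5f1b, Atp5po, Atp5f1c, Ndufb3, Cox5a, Ndufb5 and Ndufa1. Against the second run, the third was higher for Uqcrfs1, Ndufv1 and Ndufa5 (9.82% of all genes) and lower for Ndufs1, Ndufs4, Ndufb3, Cox5a, Ndufb5 and Ndufa1 (7.93%) after normalization. As deposited it was higher for Ndufa5 (9.62%) and lower for those 6 and for Atp5f1b and Atp5f1c (8.11%). The second run differed from the first for Sdha, which was higher (5.04%), and Ndufv2, which was lower (5.24%). As deposited, 0 were higher (4.85%) and Atp5po was lower (5.19%). Without the 2 arrays of highest GAPDH ratio, an alternative chosen after seeing the data, 2 normalized members were higher (7.43%) and 7 lower (8.27%) in the second run than in the first. In the third run 1 was then higher (10.5%) and 5 lower (8.86%) than in the first, and 3 were higher (10.9%) and 7 lower (8.39%) than in the second. As deposited, the same 2 arrays left out, 2 were higher (7.27%) and 3 lower (8.26%) in the second run than in the first. The third run had 0 higher (9.98%) and 11 lower (9.56%) than the first, and 1 higher (10.6%) and 10 lower (8.62%) than the second.

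Most members were bright. Of the 33 probe sets, 29 were in the brightest 10% of all probe sets on the arrays and 20 above the 99th percentile, a statement on probe signal and not on the amount of RNA. At the 99th percentile of an array's probe sets, the third run averaged -0.063 against the mean of all arrays on the log2 scale, and the first and second runs 0.038 and 0.025. At the 95th percentile the values were -0.0029, -0.0051 and 0.0080, and at the 90th 0.016, -0.015 and -0.0015. The 99th percentile was lowest in the third run's Dahl S rats, at 2508 to 2756 units, and lay at 2749 to 2954 units in its S.SHR(2) rats. The part of these array differences in the members' values was not tested.

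**Figure D4:**
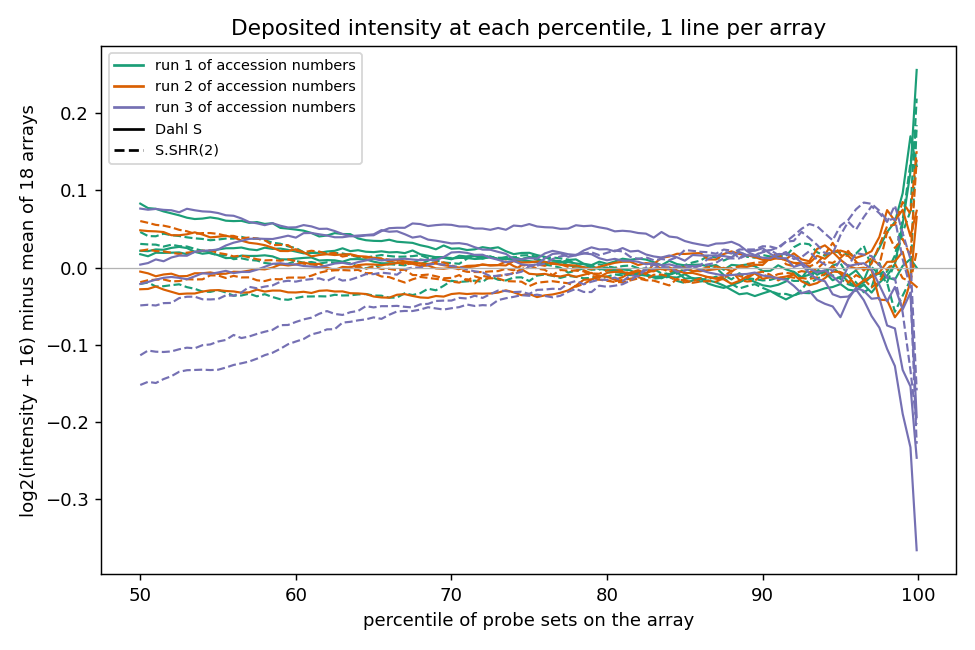
Deposited log2(intensity + 16) at each percentile from 50 upward of an array's probe sets, minus the mean of the 18 arrays. Each line is an array, coloured by run of sample numbers, solid for Dahl S and dashed for S.SHR(2). The lines part near the top percentiles, where the third run falls below the others (a mean of -0.063 at the 99th percentile), and near the middle, where S.SHR(2) arrays of the third run are lowest.

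The subunits encoded by mitochondrial DNA were measured by 2 of 9 listed genes, COX1 and COX2, which make the catalytic core of complex IV and were matched under the names of the annotation. COX1 averaged 9101 ± 2070 units (SD, n = 9) in Dahl S and 9771 ± 2253 units in S.SHR(2), with a change of 0.029 ± 0.054. COX2 averaged 11043 ± 2233 and 11397 ± 2622 units, with a change of -0.018 ± 0.041. Neither was called. Their deposited run means were 10946, 10649 and 6713 units for COX1 and 12959, 12375 and 8326 units for COX2. After normalization COX2 had means of 13.41, 13.42 and 13.40, and COX1 of 13.21, 13.22 and 13.03. COX2 was the brightest probe set on 13 of the 18 arrays, and quantile normalization gives the brightest probe set of every array the same value, so its normalized means carry little information on the runs.

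The nuclear subunits outside the 36 were likewise not called between strains. Of 21 further complex I subunits, 19 were tested and 0 called in limma (0 at an unadjusted p under 0.05), with 12 above 0 and a median of 0.061. Ndufa3, Ndufa6 and Ndufa7 gave estimates of 0.078 ± 0.085, -0.0032 ± 0.13 and 0.017 ± 0.12. All 4 further complex III subunits were tested, with a median of 0.043, and Uqcrh, Uqcrq and Uqcr10 gave estimates of 0.12 ± 0.070, 0.066 ± 0.080 and 0.021 ± 0.046. The 4 of complex IV had a median of -0.030, with Ndufa4, Cox6b1 and Cox7b at -0.0096 ± 0.065, -0.026 ± 0.14 and -0.21 ± 0.11. Of 11 further subunits and the inhibitor of complex V, 9 were tested, with a median of 0.026, and Atp5f1d, Atp5f1e and Atp5mc3 gave estimates of 0.033 ± 0.098, 0.026 ± 0.069 and 0.027 ± 0.051. None of these was called, and none reached an unadjusted p under 0.05. Of 5 isoforms known from heart, lung or muscle, Cox7a1 was tested, at 34.2 and 39.4 units in Dahl S and S.SHR(2).

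Carriers that feed or serve the chain were tested for 8 of 9 genes, with 0 called and 1 at an unadjusted p under 0.05. That gene, named after its value was seen, was Etfdh, the flavoprotein dehydrogenase that links fatty acid oxidation to the ubiquinone pool, encoded on chromosome 2. It averaged 749 ± 69.3 units in Dahl S and 969 ± 64.6 units in S.SHR(2), a change of 0.34 ± 0.066 with an adjusted p of 0.062 in limma. The phosphate carrier Slc25a3 and the nucleotide carriers Slc25a4 and Slc25a5 gave estimates of 0.0031 ± 0.041, -0.14 ± 0.11 and -0.014 ± 0.072.

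Assembly factors were tested for 16 of 18 genes and none was called. Of these, 11 were above 0 (median 0.033), and Surf1, Sco1 and Cox10, all needed to build complex IV, gave estimates of 0.047 ± 0.078, -0.17 ± 0.087 and 0.067 ± 0.10. Atpaf1 was the member of that list at an unadjusted p under 0.05 (-0.23 ± 0.10, adjusted p = 0.999), named after its value was seen. All 10 regulators of mitochondrial genes were tested, with 3 above 0, 0 called and 2 at an unadjusted p under 0.05. Ppargc1a, the coactivator PGC-1α, averaged 421 ± 46.2 units in Dahl S and 353 ± 73.0 units in S.SHR(2), a change of -0.26 ± 0.10 (adjusted p = 0.999 in limma). Tfb1m, a mitochondrial rRNA methyltransferase named after its value was seen, gave an estimate of 0.26 ± 0.10 (adjusted p = 0.999). Ppargc1b and Esrra gave estimates of 0.072 ± 0.093 and -0.19 ± 0.14.

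Neighbouring pathways likewise had no called gene and none at an unadjusted p under 0.05. The citric acid cycle had a median of -0.027 over 11 of 13 genes, with Cs, Idh3a and Idh3b at -0.088 ± 0.11, -0.082 ± 0.098 and -0.027 ± 0.059. Glycolysis had a median of -0.0052 over 11 of 14 genes, with Hk1, Gpi and Pfkm at -0.22 ± 0.14, -0.013 ± 0.058 and 0.038 ± 0.12. Cytosolic ribosomal proteins had one of -0.044 over 11 of 20, with Rpl3, Rpl4 and Rpl5 at -0.015 ± 0.046, -0.044 ± 0.074 and 0.021 ± 0.063. The medians of these lists were, in the same order, 0.014, 0.017 and 0.0053 as deposited.

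Markers of cell types were examined beside these values. All 6 proximal tubule markers were tested and 0 called, with 1, Slc22a6, at an unadjusted p under 0.05 (0.13 ± 0.052) and 5 above 0. Their summed deposited intensity ranged from 16939 to 22804 units in Dahl S and from 18702 to 25320 units in S.SHR(2). By run it ranged from 21708 to 23550, from 20734 to 25320 and from 16939 to 20280 units, lowest in the third run. After normalization the run means of Slc34a1, Slc22a6 and Cubn were lowest in the third run, and those of Lrp2, Slc5a2 and Slc13a3 were not. In the deposited sums the strains were separate by a narrow gap in the first run (Dahl S 21708 to 22702.5, S.SHR(2) 22713 to 23550 units). They overlapped in the second. In the third they overlapped as well, from 16939 to 18982 units in Dahl S and from 18702 to 20280 units in S.SHR(2). All 4 macrophage markers were tested and 0 called, with 4 below 0. Their sum ranged from 433 to 991.9 units in Dahl S and from 332 to 1084 units in S.SHR(2), and by run from 332 to 650, from 590 to 779 and from 594 to 1084 units. In the first run the strains were separate, at 433 to 650 units in Dahl S and 332 to 392 units in S.SHR(2), and they overlapped in the others. Of the other lists, the thick ascending limb summed to 8948 to 9702, 9667 to 10557 and 7811 to 9120 units in the first, the second and the third run. After normalization Slc12a1 alone of its tested markers had its lowest run mean in the third run. Umod, the brightest of them, then had run means of 12.56, 12.75 and 12.79.

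In the sums of several lists the first run was highest without overlap with the others. A sum follows its brightest genes, and single genes did not all share its order. Mean intensities by run were 2690, 1507 and 1008 units for Calb1 but 415, 368 and 721 units for Slc12a3 (distal tubule). They were 3375, 2348 and 2015 units for Aqp2 but 195, 146 and 202 units for Scnn1g (collecting duct). Of the podocyte markers, Podxl had 518, 361 and 308 units and Nphs1 had 105, 106 and 87 units. The collecting duct markers summed to 5304 to 5590 units in the first run, 3267 to 4407 in the second and 3148 to 4733 in the third, and those of the distal tubule (2 of 4 tested) to 2846 to 3492, 1571 to 2230 and 1577 to 1829 units. The 3 tested podocyte markers summed to 683 to 866, 523 to 604 and 426 to 538 units, and endothelial markers (3 of 4 tested) to 1791 to 1928, 1264 to 1404 and 1220 to 1347 units. Ptprc, the tested lymphocyte marker of 4 listed, lay between 34.6 and 108, 141 and 187, and 118 and 273 units, and the 3 tested fat markers summed to 83.3 to 162, 116 to 165 and 105 to 146 units. Over the 3 runs together the sums of each of these lists overlapped between the strains, and 0 of their genes were called. Within runs, the strains were separate for podocyte markers in the second (Dahl S 576 to 604, S.SHR(2) 523 to 558 units). They were also separate for Ptprc in the third (Dahl S 181 to 273, S.SHR(2) 118 to 179 units). With 3 rats per strain, separate ranges like these and those of the lists above arise easily by chance. The share of all genes separate in this way within a run was not counted. No tested marker was listed at 0. The part of any of these cell types in the members' values was not tested.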

How the data were processed

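Per the labels' protocols, 10 µg of total kidney RNA was labelled and 15 µg of cRNA hybridised. The authors deposited 1 linear intensity per probe set and array. No source used here names the software, and no scanner files were used here. The values show a common mean of 150 units after trimming 2% from each end.

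Control probe sets (57) were dropped, values taken as log2(intensity + 16), and arrays quantile-normalized because their medians spanned 0.235 (limit 0.2). The dimmest 40% of probe sets were dropped, leaving 18625. The platform annotation named 1 gene for 20826 probe sets, several for 436 and none for 9780; 20813 matched the RefSeq table of GRCr8. A gene was read from its brightest probe set naming it alone.

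limma 3.58.1 (R 4.3.3; lmFit, eBayes with trend) compared strains over all 10483 genes, two-sided, with Benjamini-Hochberg adjustment and calls at 0.05. A change on this scale understates that of dim genes. Strain differences within runs used cell means of strain by run. The number of arrays limits the precision. The fit was tested on simulated data. The alternatives tried were a pseudocount of 1 or 64, the filter dropped or set to 60%, values as deposited, median centring, run as covariate, averaged probe sets, array weights, no trend, the 2 arrays of highest GAPDH ratio left out, and each rat left out. Named genes were all members, the first 3 tested genes of each further list and its called genes. Etfdh, Atpaf1, Tfb1m and Slc22a6 were added after their values were seen, as were the run means of single cell type markers. Members and lists were chosen with earlier results of these data known. Figures used matplotlib 3.10.9.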

Additional observations from a re-analysis of the deposited data

Results flagged for a closer look

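Each member's normalized values were checked in each strain for a rat whose gap to its nearest neighbour was a large part of the strain's range (Dixon's test at 95%). Of 78 groups of genes or scores and strains, 10 were marked, and chance alone marks about 1 in 20 groups. The number printed after each gene is that gap as a share of the range of normalized log2 values, while the units beside it are as deposited. In deposited log2 values the gap passed the same limit for Ndufb8 (0.553), Uqcrfs1 (0.511) and Atp5pb (0.623), and lay between 0.298 and 0.485 for the others apart from Cox6c (0.018), whose deposited value did not stand apart.

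S.SHR(2) replicate 1, the array with the highest GAPDH 3′/5′ ratio (2.51), was the highest of its strain for Ndufb5 (0.542; 5415 units, the others 2442 to 3760) and Cyc1 (0.718; 3833 units, the others 2828 to 3307). It was the lowest for Atp5pb (0.539; 2901 units, the others 3949 to 4758) and Cox6a1 (0.524; 2896 units, the others 3241 to 4138).

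Dahl S replicate 5, with the next highest ratio (2.04), was the lowest of its strain for Ndufv1 (0.674; 1342 units, the others 1513 to 1758), Ndufb8 (0.541; 93.8 units, the others 196 to 346) and Ndufs3 (0.526; 1013 units, the others 1347 to 1845). It was also the lowest for Uqcrfs1 (0.495; 2144 units, the others 3010 to 4160) and Cox6c (0.549; 4069 units, the others 4092 to 5524). Leaving out both arrays gave changes of 0.16 for Ndufb5 and 0.11 for Cyc1.

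S.SHR(2) replicate 4 was the lowest for Uqcrc1 (0.556; 2046 units, the others 2171 to 2495).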

How the results depend on the processing

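No member was called in the strain comparison in the main fit, in any of the 11 alternatives or in any of the 18 fits that left out a rat, and the lowest adjusted p was 0.28. No paired analysis was possible because the labels carry no replicate number shared by the strains. Over all genes the count of calls was 6; it was 11 as deposited, 51 with the run as a covariate, 10 with probe sets averaged per gene and 21 with array weights, and it ranged from 6 to 14 when a rat was left out (14 without Dahl S replicate 1, 10 without Dahl S replicate 2). With arrays centred on medians the members' median change moved from 0.027 to 0.10, those of complexes II and III to 0.11 and 0.074, and that of complex V to 0.11 (0.071 as deposited), and 1 member, Cyc1, was called within the third run. Leaving out a rat moved the members' median between 0.0032 and 0.037. Why these values moved was not tested. Of the members' estimates, 16 kept their sign under every setting, and 17 small ones turned sign under at least 1. As deposited these were Ndufb3 0.040, Ndufs1 0.011, Uqcrc2 0.021, Uqcrfs1 0.016, Cox4i1 0.016, Cox5b 0.023, Cox6a1 0.014 and Atp5po 0.040. With arrays centred on medians they were Ndufb3 0.083, Ndufs1 0.055, Uqcrc2 0.065, Uqcrfs1 0.060, Cox4i1 0.059, Cox5b 0.067, Cox6a1 0.058 and Atp5po 0.084. With array weights they were Ndufb3 0.014, Cox5a -0.021 and Atp5po 0.016. Without the 2 arrays of highest GAPDH ratio they were Ndufs3 -0.0097, Ndufv2 -0.011, Uqcrc1 -0.017, Cox5a -0.088 and Atp5f1b -0.0024. When a rat was left out, the lowest and highest estimates of those that turned were Ndufb3 -0.026 to 0.034, Ndufb8 -0.13 to 0.16, Ndufb10 -0.020 to 0.090, Ndufs1 -0.056 to 0.016, Ndufs3 -0.044 to 0.059, Ndufv2 -0.0059 to 0.050, Uqcrc1 -0.020 to 0.028, Uqcrc2 -0.044 to 0.018, Uqcrfs1 -0.091 to 0.011, Cox5a -0.11 to 0.13, Cox5b -0.061 to 0.018, Cox6a1 -0.048 to 0.013, Cox6c -0.0036 to 0.034, Cox8a -0.0011 to 0.053 and Atp5po -0.035 to 0.031. Detection calls were not used here, so how far dim probe sets lie above background is unknown.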
